A study of Mus musculus with 8 samples.

Results

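The respiratory chain genes are the subunits of the mitochondrial electron transport chain and ATP synthase, taken here as 104 protein-coding genes of 19673 genes listed, of which 13894 are protein-coding. They were chosen by name (Nduf with a, b, c, s or v, Sdha to Sdhd, Uqcr, Cox4 to Cox8, Atp5 and mt-) and grouped by complex and by the genome that encodes them. The nuclear genome held 91 of them, with 39 named for complex I, 8 complex I assembly factors, 4 in complex II, 8 in complex III, 14 in complex IV and 18 in complex V. The mitochondrial genome held the other 13, with 7 in complex I, 1 in complex III, 3 in complex IV and 2 in complex V. The names also took in Cox5b-ps, which the table lists as protein-coding, and a second locus called Atp5o. They left out Cyc1, the cytochrome c1 subunit of complex III. Ndufa4 is grouped by its name with complex I, although its protein is known as a subunit of complex IV.

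The cells were live CD45+CD3e+CD8+ cells, the surface markers of CD8 T cells, sorted by flow cytometry from tumours. The tumours came from injected Py8119 cells, a mouse mammary tumour line. Hosts were Mtdh KO mice (KO, 4 libraries) or WT mice (WT, 4 libraries), described as biological replicates, and the labels used here give neither strain nor age, nor what the Mtdh allele is. Mtdh encodes metadherin, a protein linked to tumour progression, and the comparison asks how its loss in the host alters the tumour's CD8 T cells. The tumour cells themselves are the same injected line in both groups.

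Electrons from NADH enter the chain at complex I and those from succinate at complex II, and pass through ubiquinone, complex III and cytochrome c to complex IV, which reduces oxygen. Complexes I, III and IV pump protons, and ATP synthase, complex V, uses the gradient to make ATP. Every complex except II is built from nuclear and mitochondrial gene products together, and T cells are known to lean on this chain for memory and for sustained function in tumours.

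The values are normalized signals per gene and library, and log2 fold changes are KO over WT on the log2(value + 1) scale. Estimated depth was 16400000 to 29600000 reads per library, and the number of distinct cDNA fragments was estimated to be far lower. A single fragment was worth an estimated 74.1, 139, 43.1 and 38.1 normalized units in KO libraries 1 to 4, against 61.3, 63.5, 25.5 and 33.0 in WT libraries 1 to 4. Values between 0 and these estimates also occur, such as 38.5 for Ndufa13 and 45.1 for Ndufab1 in KO library 2, so no estimate is a floor. Values near the estimates are taken to rest on few fragments. Mtdh itself had 5118, 4622, 2538 and 3341 in KO libraries, against 9324, 12745, 6407 and 7974 in WT libraries, with no overlap (log2 fold change -1.23 with an SE of 0.25, limma adjusted p = 0.0400, exact two-sided permutation p = 0.0286, the smallest that 70 arrangements allow). Leaving out 1 library at a time gave limma adjusted p-values of up to 0.241 for Mtdh.

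The labelled cell type was checked against marker lists. All 12 CD8 T cell markers were above the minimum, and Cd8a had 7561 to 13355 in KO libraries and 1565 to 6545 in WT libraries. The summed CD8 T cell markers came to 23457 to 49866 in KO libraries and 8561 to 30354 in WT libraries, lowest in WT library 2, with 11 of 12 higher in KO. The 12 macrophage and monocyte markers were higher in sum, 110537 to 248286 in KO libraries and 185961 to 290869 in WT libraries, with 1 of 12 higher in KO. The 7 dendritic cell markers were Flt3, Xcr1, Clec9a, Ccr7, Itgax, H2-Aa and Cd74. They summed to 39532 to 95922 in KO libraries and 15315 to 29027 in WT libraries, with 7 of 7 higher in KO and 2 past the threshold. Such a sum gives most weight to the most abundant genes and does not measure the number of dendritic cells. Fibroblast markers summed to 3622 to 22089 in KO libraries and 8038 to 19522 in WT libraries. Red cell markers, 2 of 3 listed and 1 fitted, summed to 0 to 1.10 in KO libraries and 101 to 193 in WT libraries, and none passed the threshold. In WT libraries 1 and 2 the sums were 109 and 101, where 1 fragment was worth an estimated 61.3 and 63.5. Markers of macrophages and monocytes, dendritic cells and fibroblasts were thus present in every library. The part of other cell types in the results on respiratory chain genes was not tested. In bulk samples, fewer cells of a type and less RNA per cell cannot be told apart.

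Of the 104 genes, 96 reached the minimum mean of 10 and were fitted with limma among 16120 genes. None of the 96 passed an adjusted p of 0.05 in either direction, where 38 of all genes fitted did (0.236%, with 34 or 0.211% higher in KO and 4 or 0.0248% lower). At an unadjusted p under 0.05, 1 was higher in KO, Atp5l, beside 3.21% of all genes, and 0 were lower, beside 3.49%. The KO and WT values of 2 genes did not overlap with KO higher, Uqcrc1 and Ndufv3, beside 2.02% of all genes, and of 0 genes with KO lower, beside 2.09%. The smallest adjusted p among the 96 was 0.740. The median log2 fold change was 0.02, with 52 above 0 and 44 below, beside a median of -0.12 over all genes fitted.

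**Figure D1:**
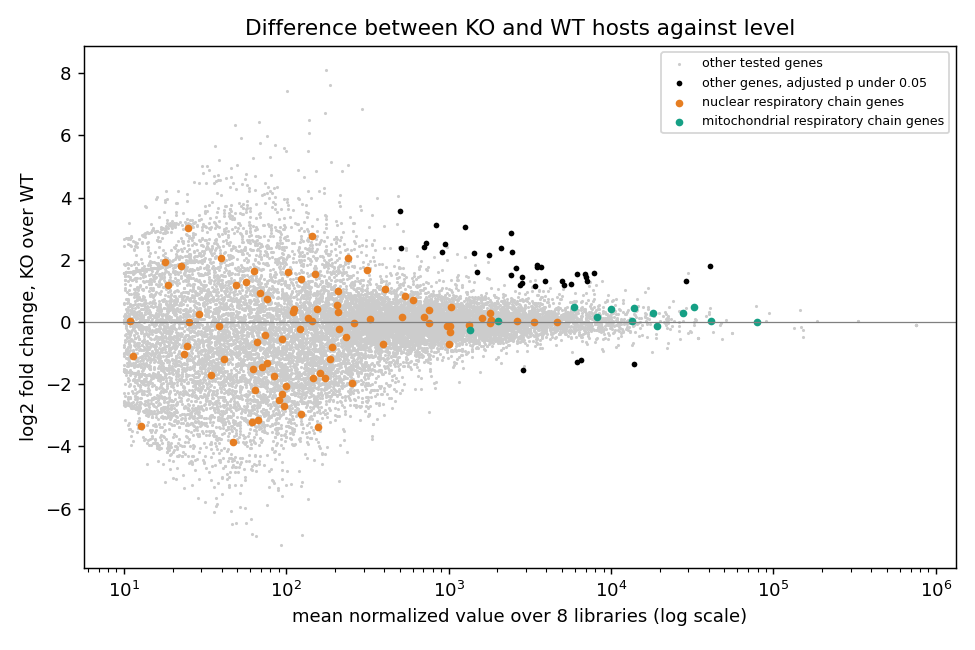
Log2 fold change, KO over WT, against the mean normalized value over 8 libraries (log scale) for 16120 genes. Nuclear respiratory chain genes (orange) spread widely at low means and lie between -0.70 and 0.83 from a mean of 500 upward, the mitochondrial ones (green) lie between -0.26 and 0.50, and no respiratory chain gene is among the genes past the threshold (black).

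How tightly the fold changes were measured depended on level. The 95% limma interval lay within 1 log2 unit of 0 on both sides for 23 of the 96 genes (24.0%), against 20.7% of all genes fitted. Among the other protein-coding genes fitted the share was 25.6%. The 23 genes were 10 of 13 mitochondrial genes and 13 of 83 nuclear ones. All 13 nuclear ones were among the 19 nuclear genes with a mean of at least 500. The median SE was 0.26 for the mitochondrial genes and 0.32 for those 19 nuclear genes, and 1.68 for the 64 fitted nuclear genes below a mean of 500, so only large changes could have been detected for most nuclear subunits.

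Summed over genes, nuclear respiratory chain transcripts came to 37132, 33683, 37242 and 38974 in KO libraries, against 35120, 29857, 39007 and 33432 in WT libraries. The groups overlapped, and their means, 36758 ± 2217 in KO and 34354 ± 3799 in WT (SD over 4 libraries each), gave a ratio of 1.07. The mitochondrial genes summed to 251514, 282892, 374311 and 234540 in KO libraries, against 275590, 318762, 157386 and 289721 in WT libraries, with the extremes in KO library 3 and WT library 3. These were 1.01% to 1.75% of each KO library's sum and 0.673% to 1.29% of each WT library's sum. The library sums include small nuclear, nucleolar and Cajal body RNAs, at 27.6% to 33.8% in KO libraries and 28.5% to 35.2% in WT libraries. The mitochondrial sum was 6.02 to 10.1 times the nuclear sum in KO libraries and 4.03 to 10.7 times in WT libraries.

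**Figure D2:**
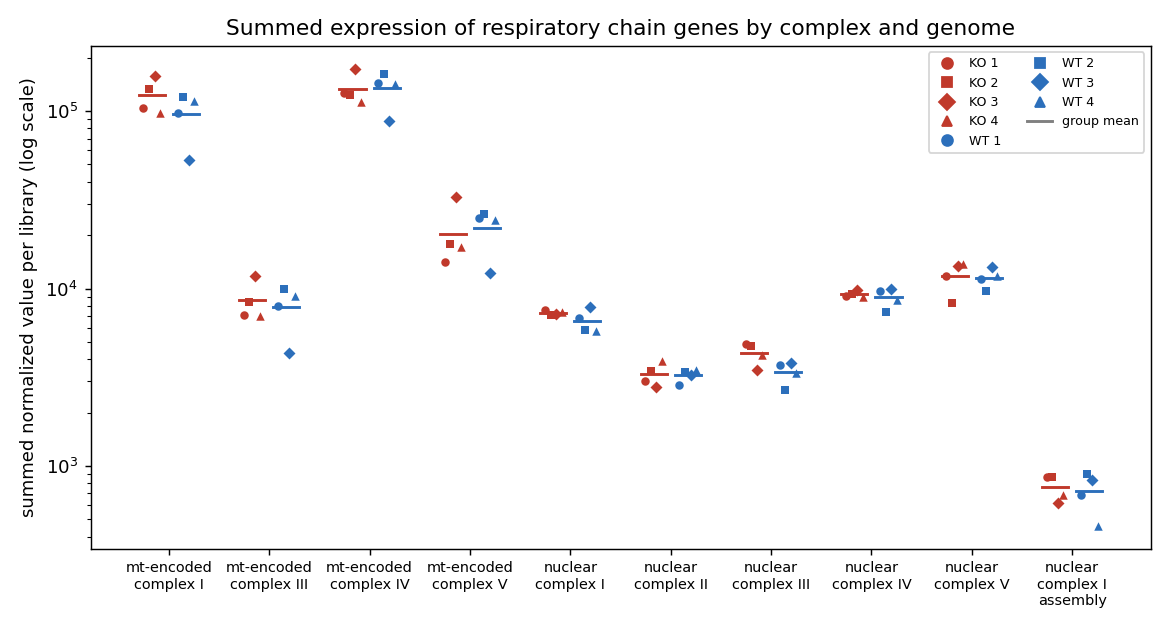
Summed normalized values per library (log scale) for each complex and genome, KO in red left of WT in blue, with a symbol per replicate number and a line at the group mean. The groups overlap in all 10 sums, and nuclear complex III shows the highest ratio of nuclear means, 4325 in KO and 3382 in WT.

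The 13 mitochondrial genes encode the hydrophobic core of their complexes and are transcribed together from each strand of the mitochondrial DNA, as long precursors that are then cut. All 13 were above the value of 1 fragment in all 8 libraries. Per kilobase of transcript, the level was highest for mt-Co2, which carries the copper centre that takes electrons from cytochrome c, with means of 114145 in KO and 117581 in WT. Next came mt-Nd3 with 45073 in KO and 34734 in WT and mt-Nd1 with 39208 in KO and 28861 in WT. The lowest of the mitochondrial genes was mt-Nd4l with 4164 in KO and 4977 in WT, close to the highest nuclear genes, Cox7a2l with 4142 in KO and 4148 in WT and Cox5a with 4125 in KO and 4020 in WT. The values of mt-Co2 in the 8 libraries, 77502 to 159592 per kilobase, lay above all those of mt-Nd3, 18049 to 54979. The ranges of every other pair of neighbours in the order overlapped. The coefficient of variation over the libraries was 27.04% to 43.04% for 11 of the genes, 21.9% for mt-Co2 and 67.1% for mt-Nd4l.

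Neighbouring mitochondrial genes share bases, which bears on the values of the short ones. On mm39, mt-Atp8 and mt-Atp6, both subunits of the membrane part of ATP synthase, share 43 bases at chrM:7927-7969, within a length of 204 bases for mt-Atp8. The genes mt-Nd4l and mt-Nd4 share 7 bases at chrM:10167-10173. In the transcripts of GENCODE M21 these junctions read as follows, on the plus strand, with the shared bases in capitals.
mt-Atp8 and mt-Atp6: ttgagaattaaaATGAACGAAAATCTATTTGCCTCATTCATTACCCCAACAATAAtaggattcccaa
mt-Nd4l and mt-Nd4: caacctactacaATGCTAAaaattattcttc
In each, the capitals begin with the start codon of the downstream gene. The pairs also lie on joint messenger RNAs, so a read over a junction cannot be assigned to 1 gene. On opposite strands, mt-Nd5 and mt-Nd6 share 14 bases at chrM:13552-13565, and since strand is not stated for the libraries, reads from there cannot be told apart.

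Of the complex I genes of the mitochondrial genome, 6 of 7 had log2 fold changes above 0, and the highest fold change was that of mt-Nd1, which helps to form the ubiquinone site. It had 35870, 44523, 40950 and 28746 in KO libraries, against 28014, 34546, 14795 and 33126 in WT libraries. The groups overlapped, WT library 3 being lowest (log2 fold change 0.50 with an SE of 0.26, limma adjusted p = 0.767). The proton-pumping antiporter-like subunits mt-Nd2, mt-Nd4 and mt-Nd5 had log2 fold changes of 0.43, 0.31 and 0.28, mt-Nd3 0.45 and mt-Nd6 0.47, with SEs of 0.23 to 0.28 and adjusted p of 0.770 to 0.834, and mt-Nd4l had -0.26 (SE 0.47). Without WT library 3 the values were 0.22 for mt-Nd1, 0.27 for mt-Nd2, 0.16 for mt-Nd3, -0.02 for mt-Nd4, 0.05 for mt-Nd5 and 0.18 for mt-Nd6. Without KO library 3 they were 0.45 for mt-Nd1, 0.25 for mt-Nd2, 0.46 for mt-Nd3, 0.11 for mt-Nd4, 0.07 for mt-Nd5 and 0.34 for mt-Nd6. The sign of mt-Nd4l changed without KO library 1 (0.09) or WT library 4 (0.15).

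The other mitochondrial genes lay nearer to 0. The 3 catalytic core subunits of complex IV had log2 fold changes of 0.04 for mt-Co1, 0.01 for mt-Co2 and 0.04 for mt-Co3. Cytochrome b, mt-Cytb, had 0.17, mt-Atp6 had -0.13 and mt-Atp8 had 0.03, and none passed the threshold. For mt-Co2, KO libraries had 78977, 80457, 84777 and 68088, against 93206, 109161, 53012 and 66322 in WT libraries. All KO values lay inside the WT range.

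The median log2 fold change of the 13 genes was 0.17, with 11 above 0, and rested on the libraries numbered 3. It was -0.09 without WT library 3 and 0.01 without KO library 3. WT library 3 had the lowest value for 12 of the 13 genes among WT libraries, the exception being mt-Atp8. Set against the other mitochondrial genes of the same library, the mt-Nd sum had ratios of 0.70, 0.899, 0.721 and 0.710 in KO libraries, against 0.549, 0.610, 0.507 and 0.651 in WT libraries. The groups did not overlap. This ratio was chosen after its values were seen and has no test, and it overlapped when mt-Co2 was left out (1.18 to 1.95 in KO and 1.03 to 1.36 in WT) or mt-Nd1 (0.457 to 0.600 in KO and 0.365 to 0.462 in WT).

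**Figure D3:**
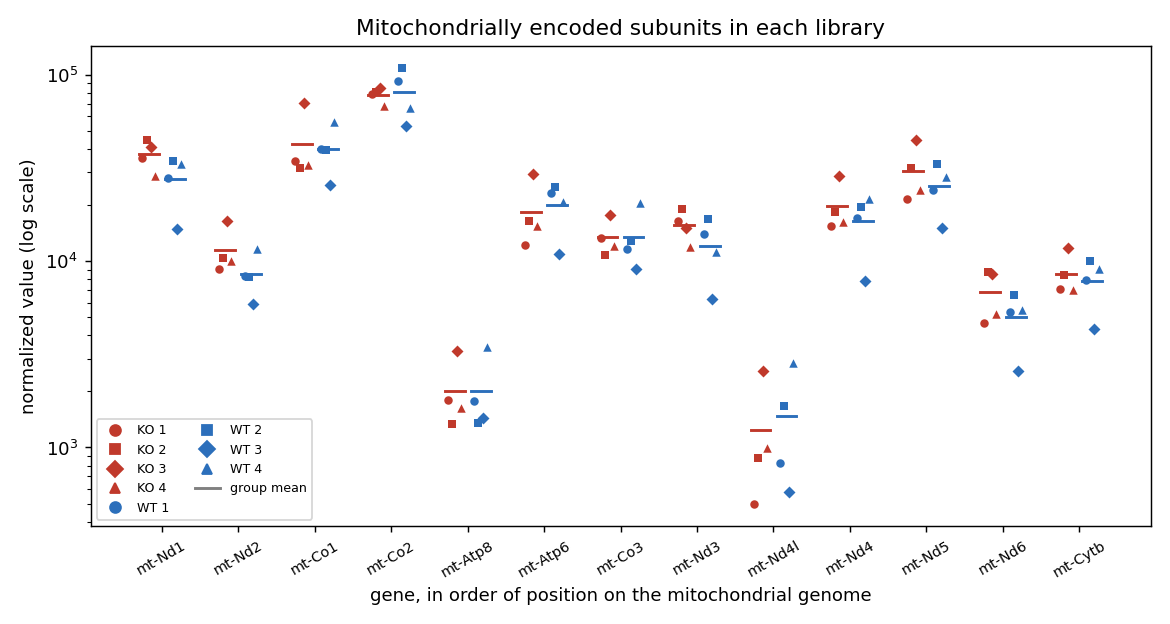
Normalized value of each mitochondrially encoded subunit per library (log scale), in order along the mitochondrial genome, KO in red left of WT in blue, with a line at the group mean. WT library 3 (blue diamonds) is the lowest WT value for every gene but mt-Atp8, and KO and WT values overlap for all 13 genes.

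Nuclear subunits were sparsely sampled. At least 1 fragment's worth was found for 48, 35, 66 and 72 of the 91 nuclear genes in KO libraries 1 to 4, and for 54, 52, 75 and 66 in WT libraries 1 to 4. Among genes with a mean of at least 10, the share that reached it was 57.8%, 42.2%, 79.5% and 85.5% of the 83 nuclear respiratory chain genes in KO libraries, against 63.9%, 62.7%, 90.4% and 79.5% in WT libraries. For the other protein-coding genes it was 76.2%, 64.7%, 84.2% and 84.3% in KO libraries, against 78.7%, 78.3%, 89.5% and 85.9% in WT libraries. The respiratory chain share was the lower in 6 of the 8 libraries and the higher in KO library 4 and WT library 3. The sets were not matched for level. A mean of at least 500 was found for 19 of the 83 nuclear respiratory chain genes and 5210 of the 12505 other protein-coding genes. Only 23 of the 91 nuclear genes reached 1 fragment's worth in all 8 libraries. Values under 0.5 numbered 24, 31, 12 and 8 of the 91 in KO libraries and 17, 26, 6 and 14 in WT libraries, so a gene listed at 0 here is not shown to be silent. The median transcript length was 835 bases for nuclear genes with a mean under 500 and 1604 bases for the 19 above it.

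**Figure D4:**
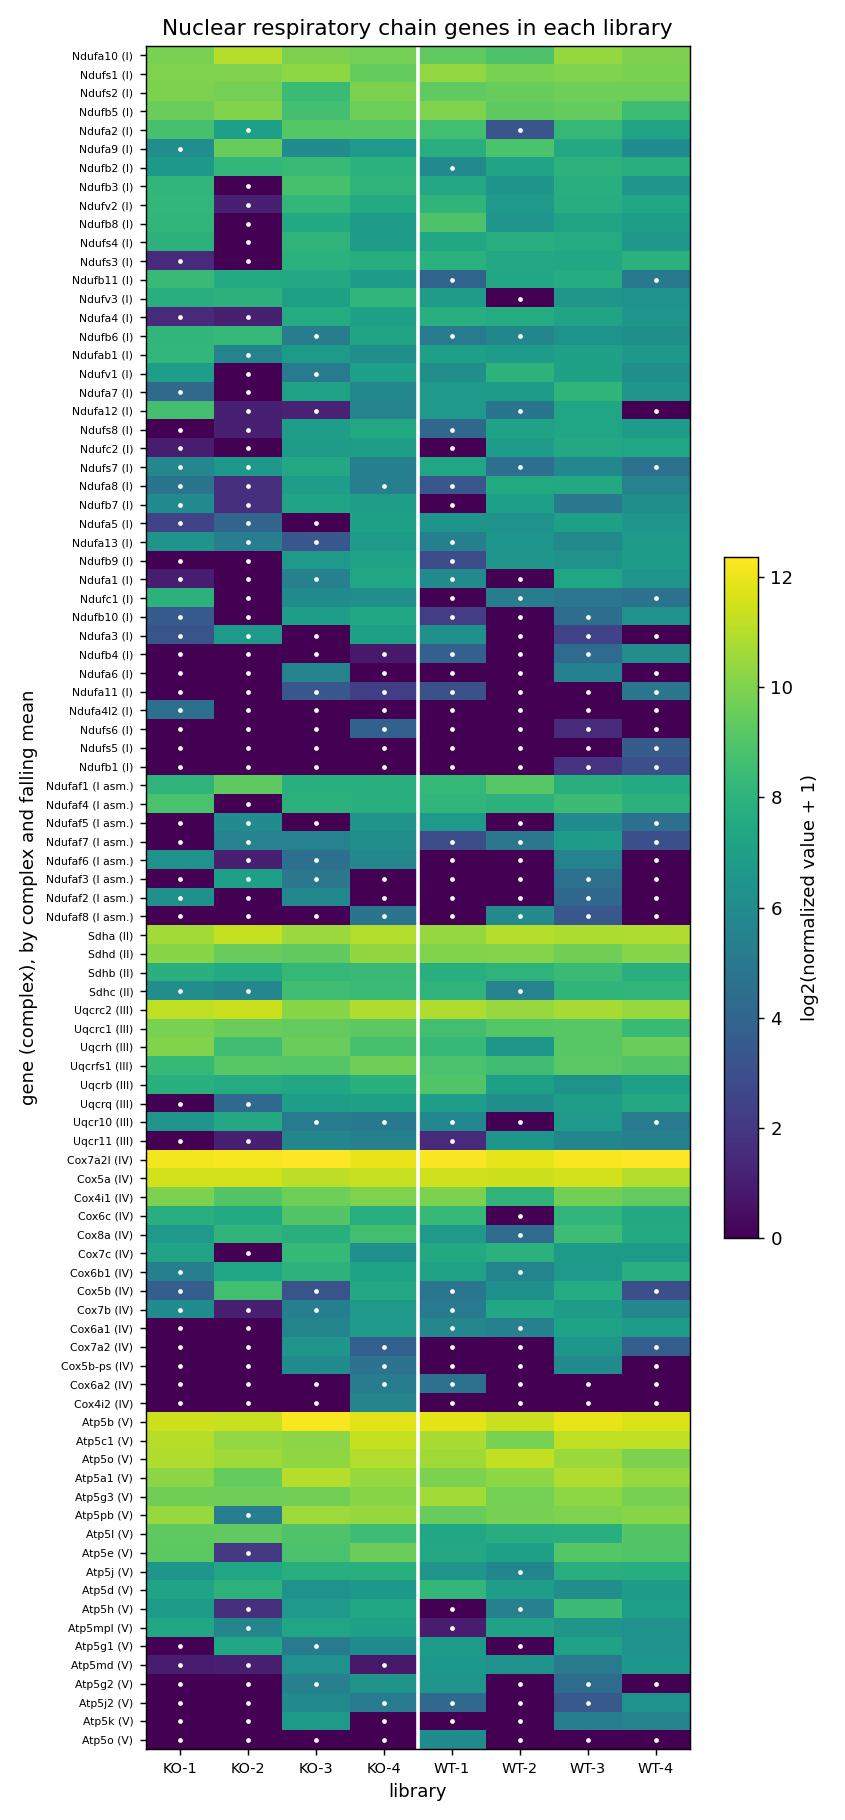
Log2(normalized value + 1) of the 91 nuclear genes in each library, KO libraries left of the white line and WT libraries right of it, by complex and falling mean. White dots mark values below the worth of 1 fragment, which are most frequent in KO library 2, where 35 of 91 genes reached it.

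Complex I is the largest complex, and its nuclear genes had a median log2 fold change of -0.51 (13 above 0 and 21 below, of 34 fitted), while their summed values had a KO over WT ratio of 1.11, the opposite direction. Ndufs1, the iron-sulfur subunit of the NADH-oxidizing arm, had 1008, 993, 1224 and 686 in KO libraries, against 1328, 946, 987 and 940 in WT libraries. Its log2 fold change was -0.12 (95% interval -0.73 to 0.50). Ndufa10, an accessory subunit, had 948, 2022, 968 and 869 in KO libraries, against 647, 471, 1348 and 983 in WT libraries, and the groups overlapped (0.50, SE 0.37, limma adjusted p = 0.783). The log2 fold change of Ndufa10 was 0.22 without KO library 2, 0.25 without WT library 2, 0.75 without WT library 3 and -0.02 with sample weights.

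Ndufv3, a small accessory subunit of the NADH-binding module, was among the genes without overlap. It had 218, 243, 127 and 278 in KO libraries, against 113, 0, 91.1 and 80.4 in WT libraries. The log2 fold change, 2.78 with an SE of 1.44 (limma adjusted p = 0.767), fell to 1.14 without WT library 2, where the gene is listed at 0. Ndufs3, a core subunit of the arm that leads to ubiquinone, stood on the other side with 1.81, 0, 239 and 205 in KO libraries, against 236, 174, 166 and 240 in WT libraries. Its log2 fold change, -3.39 with an SE of 1.70 (limma adjusted p = 0.761), came from KO libraries 1 and 2, while KO libraries 3 and 4 lay within the WT range. KO libraries 1 and 2 had the highest estimated worth of 1 fragment, 74.1 and 139 units. That estimate is itself drawn from missing values, and its part here was not tested. Without KO library 2 the log2 fold change of Ndufs3 was -1.96.

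Several other nuclear genes had the same profile, near 0 in KO libraries 1 and 2. Ndufa4 had 1.81, 1.10, 199 and 133 in KO libraries, against 222, 193, 148 and 89.9 in WT libraries (log2 fold change -2.97, SE 1.66). Cox6a1, the widely expressed isoform of a complex IV subunit, had 0, 0, 46.8 and 100.3 in KO libraries, against 51.2, 42.6, 142 and 108 in WT libraries (-3.21, SE 2.02). Atp5md, a small subunit tied to ATP synthase dimers, had 0.90, 1.10, 75.3 and 0.79 in KO libraries, against 95.8, 78.5, 32.8 and 89.9 in WT libraries (-3.85, SE 1.99), and was thus near 0 in KO library 4 as well. Without KO library 2 the value of Ndufa4 was -1.88. The limma adjusted p of these 3 lay between 0.767 and 0.770.

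The complex I assembly factors, which build the complex and are not part of it, split evenly, 4 above 0 and 4 below. Ndufaf1, the most abundant of them with Ndufaf4, had 266, 631, 229 and 229 in KO libraries, against 304, 573, 213 and 187 in WT libraries, with a log2 fold change of 0.08. Ndufaf4 had 450, 0, 242 and 225 in KO libraries, against 275, 243, 348 and 244 in WT libraries. Its log2 fold change of -1.97 (SE 1.39) turned to 0.08 without KO library 2, where the gene is listed at 0. Ndufaf6 had 77.7, 1.10, 22.1 and 52.1 in KO libraries, against 0, 0, 45.6 and 0 in WT libraries (3.02, SE 2.09, limma adjusted p = 0.777), values at or below about 2 fragments.

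Complex II, succinate dehydrogenase, belongs to the TCA cycle as well as to the chain, and its 4 genes are all nuclear. Sdha, the flavoprotein that oxidizes succinate, had 1573, 2469, 1464 and 1972 in KO libraries, against 1347, 2024, 1824 and 1860 in WT libraries (log2 fold change 0.07, 95% interval -0.46 to 0.60). Sdhd, a membrane anchor, had 1145, 710, 644 and 1284 in KO libraries, against 1032, 1061, 818 and 1098 in WT libraries (-0.14, interval -0.79 to 0.51). The groups overlapped for both genes, and the sum over complex II was 3287 ± 499 in KO and 3243 ± 268.6 in WT (SD over 4 libraries each).

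Complex III had the highest KO over WT ratio of summed values among the nuclear groups, 1.28, with 4325 ± 642.9 in KO and 3382 ± 505.9 in WT (SD over 4 libraries each), and 6 of 8 genes above 0. The values overlapped, KO library 3 having 3461 and WT libraries 1 and 3 having 3694 and 3806. Uqcrc1, a core subunit on the matrix side, lay on chromosome 9 (mm39 chr9:108765701-108778691, plus strand). It had 942, 755, 669 and 610 in KO libraries, against 385, 550, 557 and 333 in WT libraries. All KO libraries were above all WT libraries (log2 fold change 0.72, SE 0.37, 95% interval -0.05 to 1.49, limma adjusted p = 0.766).

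Uqcrc2, the partner core subunit of Uqcrc1, had 2277, 2672, 1127 and 1921 in KO libraries, against 1859, 1376, 1732 and 1380 in WT libraries, and KO library 3 was the lowest of all 8 (0.28, SE 0.28). Uqcrh, the hinge protein that helps cytochrome c to dock, had 1029, 381, 740 and 427 in KO libraries, against 311, 92.7, 573 and 754 in WT libraries (0.83, SE 0.57). Without WT library 2 the value of Uqcrh was 0.21, and without KO library 2 that of Uqcrc2 was 0.11, or 0.53 without KO library 3. Uqcrfs1, the Rieske iron-sulfur protein, had a log2 fold change of 0.16 and Cyc1, which lies outside the name rule, -0.29. None of these passed the threshold.

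Complex IV held the steadiest genes, Cox7a2l and Cox5a, but also Cox7a2, with a coefficient of variation of 156.6% over the 8 libraries. The median SE of the 12 nuclear complex IV genes fitted was 1.46. Cox7a2l, known for joining complexes III and IV into supercomplexes, had 4536, 4809, 5243 and 4117 in KO libraries, against 4997, 3798, 4762 and 5174 in WT libraries. Over all 8 libraries its coefficient of variation was 10.8%, and the log2 fold change was 0.00 with a 95% interval of -0.41 to 0.42. Cox5a had 2957, 2958, 2198 and 2531 in KO libraries, against 2868, 2688, 2884 and 1930 in WT libraries (0.05, interval -0.43 to 0.52). Both intervals leave out a change of 1 log2 unit either way. Cox4i1, the common form of the regulatory subunit IV, had 964, 526, 799 and 1004 in KO libraries, against 979, 264, 849 and 662 in WT libraries (0.37, SE 0.41). Cox6c, a small accessory subunit, had 214, 186, 529 and 215 in KO libraries, against 312, 0, 283 and 173 in WT libraries (2.06, SE 1.40, limma adjusted p = 0.773). Without WT library 2, the log2 fold change was 0.07 for Cox6c and -0.04 for Cox4i1.

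Tissue-restricted and inducible isoforms were seldom found. Cox4i2, the form of lung and of low oxygen, was at 48.9 in KO library 4 and at 0 in the other 7 libraries. Cox6a2, the form of heart and skeletal muscle, had 36.3 in KO library 4, 23.3 in WT library 1 and 0 elsewhere. Ndufa4l2, which low oxygen is known to induce, had 21.7 in KO library 1 and 0 elsewhere. Each of these values is below or little above the worth of 1 fragment in its library. Of the other subunits with isoforms, Cox6b1, Cox7a2, Cox7b and Cox8a had log2 fold changes of 0.12, 0.01, -1.46 and 1.01, with SEs of 0.92 to 2.16. Without KO library 2 that of Cox7b was -0.22, and that of Cox8a was 0.18 without WT library 2 and 1.59 without WT library 3.

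ATP synthase is driven round by its c ring, and 3 genes encode the same mature c subunit. Atp5g3 made up 82.6% to 100% of their summed values in KO libraries and 88.3% to 100% in WT libraries. It had 816, 818, 835 and 1130 in KO libraries, against 1616, 884, 1208 and 904 in WT libraries (log2 fold change -0.33, SE 0.30, and -0.15 without WT library 1). Atp5g1 had under 0.5, 172, 32.3 and 64.1 in KO libraries, against 107, 0, 140 and 80.5 in WT libraries, and Atp5g2 was under 0.5 in KO libraries 1 and 2 and in WT libraries 2 and 4.

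In the catalytic head, fold changes lay near 0. Atp5b, the beta subunit that forms ATP, had 2702, 2535, 4899 and 3577 in KO libraries, against 3631, 2620, 3764 and 3247 in WT libraries (0.01, 95% interval -0.48 to 0.51). Atp5c1, the rotating gamma subunit, had 2082, 1328, 1175 and 2448 in KO libraries, against 1782, 931, 2280 and 2289 in WT libraries (-0.03, interval -0.69 to 0.63). For both genes the KO and WT values overlapped.

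Atp5l, subunit g of the membrane part, had the smallest p of all 96 genes. It had 630, 645, 493 and 369 in KO libraries, against 164, 207, 213 and 536 in WT libraries. KO values were above 3 of the 4 WT libraries, and WT library 4 lay above 2 of the KO libraries (log2 fold change 1.06, SE 0.50, 95% interval 0.02 to 2.10, unadjusted p = 0.0464, limma adjusted p = 0.740). The second locus named Atp5o had 64.3 in WT library 1 and under 0.5 elsewhere, while Atp5o proper, part of the stalk, had 1866, 1568, 1247 and 1964 in KO libraries, against 1534, 2375, 1440 and 952 in WT libraries. These 2 loci overlap on chromosome 16 and may share reads.

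**Figure D5:**
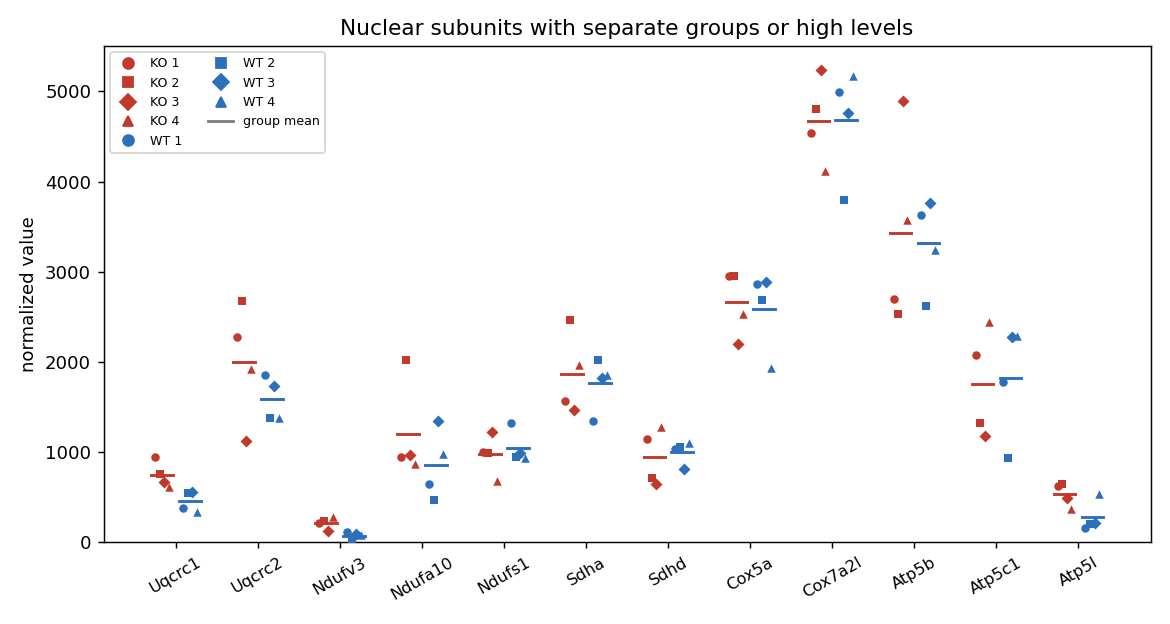
Normalized values of 12 nuclear genes in each library, KO in red left of WT in blue, with a line at the group mean. Uqcrc1 and Ndufv3 show no overlap between groups, Cox7a2l and Cox5a vary little, and the single high KO value of Ndufa10 is that of KO library 2, 2022.

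The remaining genes under the minimum mean were subunits of complex I. Ndufa11 reached at most 27.6, in WT library 4, Ndufb1 at most 7.10 and Ndufs5 at most 11.04, both in WT library 4 too, and Ndufs6 at most 13.4, in KO library 4. No test was made for these genes.

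The promoters of the nuclear genes are known to share sites for nuclear respiratory factor 1 (NRF1), ETS-family factors and YY1. In the RefSeq promoters on GRCm38.p6, from 250 bases before to 50 after each start, 73 of the 91 nuclear genes had an entry by symbol. The NRF1 core CGCATGCG was present in 11 of the 73 (15.1%), against 2.07% of 27025 genes. The YY1 motif AAGATGGC, on either strand, was in 11 (15.1%), against 3.19% of all, and the ETS motif CCGGAAGT, on either strand, in 5 (6.85%), against 4.31%. A match is a description of the letters and not of binding. The sites of 3 genes whose values are given above are shown with the NRF1 core in capitals, each on the strand of its gene.
Atp5l (chr9:44920949-44920992, minus strand, 241 bases before the start): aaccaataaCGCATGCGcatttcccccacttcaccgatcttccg
Cox6a1 (chr5:115349094-115349137, minus strand, 161 bases before the start): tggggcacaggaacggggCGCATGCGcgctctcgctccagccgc
Ndufaf4 (chr4:24897953-24897996, plus strand, 112 bases before the start): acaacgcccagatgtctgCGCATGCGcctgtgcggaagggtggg
Whether the core goes with a direction of change was not tested.

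Genes around the chain were listed by role, and none of their genes passed the adjusted threshold. Over all genes fitted, KO and WT values did not overlap for 2.02% with KO higher and 2.09% with KO lower. Of 45 further assembly factors, 17 were above 0 and 28 below (median -0.16), and Coa7 alone did not overlap, with 270, 214, 390 and 311 in KO libraries, against 211, 157, 129 and 155 in WT libraries. Cox20, which helps to assemble the mt-Co2 product, had the smallest p of them, with 152 in KO library 4 and under 0.5 in the other KO libraries, against 25.6, 173, 13.2 and 123 in WT libraries (limma adjusted p = 0.770). Of 20 fitted genes of mitochondrial biogenesis and mitochondrial DNA transcription, 6 were above 0 and 14 below (median -0.13). Tfam, which packages and starts transcription of mitochondrial DNA, had a log2 fold change of -0.06 and Nrf1 one of -0.25. Polg2, the accessory subunit of the mitochondrial DNA polymerase, had 159, 139, 210 and 127 in KO libraries, against 428, 226, 247 and 212 in WT libraries, without overlap (-0.77, SE 0.65, limma adjusted p = 0.815). The 16 genes of mitochondrial RNA processing split 8 and 8 (median 0.10), and Fastkd5, which acts on mitochondrial messages without flanking tRNAs, had 436, 232, 649 and 231 in KO libraries, against under 0.5, 209, 225 and 347 in WT libraries.

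Of the mitochondrial ribosomal proteins, which translate the 13 mitochondrial messages, 71 of 78 were fitted, 21 above 0 and 50 below, with a median of -0.51 beside -0.12 over all genes fitted. Their summed values were 12154 ± 1464 in KO and 12199 ± 983.5 in WT (SD over 4 libraries each), a ratio of 0.996, so the low median came with no lower sum, and the median SE was 1.62. Of the 71, 3 did not overlap with KO lower, Mrpl43, Mrps5 and Mrpl48, beside 2.09% of all genes fitted. Mrpl27, which had the smallest p of the list, was listed at 0 in all 4 KO libraries, against 21.4, 0, 39.2 and 28.4 in WT libraries (limma adjusted p = 0.748). Among 20 genes of the TCA cycle and pyruvate entry, 8 were above 0 and 12 below (median -0.28). Their summed values overlapped between groups, with a KO over WT ratio of 0.943. At an unadjusted p under 0.05, 1 was higher in KO, beside 3.21% of all genes fitted, and 1 was lower, beside 3.49%. Suclg2, a subunit of succinyl-CoA synthetase, had 741, 539, 539 and 550 in KO libraries, against 1215, 1164, 819 and 794 in WT libraries (-0.74, SE 0.32, limma adjusted p = 0.730). Idh2, which makes NADPH from isocitrate in mitochondria, had 468, 453, 374 and 452 in KO libraries, against 571, 928, 776 and 646 in WT libraries (-0.72, SE 0.36, limma adjusted p = 0.761). In both genes, 2 of the 20, every KO library was below every WT library, beside 2.09% of all genes fitted.

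Electron carriers and other inputs, 21 genes, had 9 above 0 and 12 below (median -0.05). In this list 1 gene was higher in KO at an unadjusted p under 0.05, beside 3.21% of all genes fitted, and 1 was lower, beside 3.49%. Cytochrome c, Cycs, had a log2 fold change of -0.03. Coq6, which modifies the ring of ubiquinone, had 0.90, 0, 103 and 169 in KO libraries, against 326, 303, 278 and 150 in WT libraries, and KO libraries 1 and 2 were again those near 0 (-4.23, SE 1.68, unadjusted p = 0.0207, limma adjusted p = 0.679). Of 14 targets of hypoxia-inducible factors, 12 were above 0 and 2 below (median 0.22). Slc2a1, the glucose transporter GLUT1, had 29179, 33820, 7636 and 23953 in KO libraries, against 9241, 12972, 7481 and 10097 in WT libraries, with KO library 3 inside the WT range (1.08, SE 0.33, unadjusted p = 0.0042, limma adjusted p = 0.375). The dendritic cell and the macrophage and monocyte marker sums of KO library 3, 39532 and 110537, were also the lowest of the KO libraries. Its CD8 T cell marker sum, 49866, was the highest. Among the other KO libraries, the dendritic cell sum was highest in KO library 4, 95922, where Slc2a1 was lowest. The part of other cells in the Slc2a1 value was not tested.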

How the data were processed

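RNA of 8 libraries, 4 KO and 4 WT, was analysed from the authors' table. Per the labels' protocols, RNA extracted on micro-scale columns was cleared of ribosomal RNA (QIAseq FastSelect) before PrepX library preparation. Software named in the submitters' processing notes is STAR 2.7.8a, Partek and DESeq2, with the mm39 build, but not what each did, and strand is not given in the sources used here. Each deposited value is a normalized signal for a gene in a library, scaled by the authors with DESeq2 going by the name of their table. Low values were not all whole multiples of the worth of 1 read, so they could not be turned back into counts for a count model. Depth is each column's sum over that step. The worth of 1 fragment was solved, under a Poisson draw, from how often a gene averaging 20 to 500 elsewhere had under 3 reads, with small RNAs set aside.

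Fitting covered genes averaging 10 or more over the libraries, entered as log2(value + 1) with limma 3.58.1 in R 4.3.3 (trend, two-sided, Benjamini-Hochberg over all genes fitted, threshold 0.05), KO against WT without covariates. The fit was tested on simulated data. Levels per kilobase use the longest GENCODE M21 transcript, which all 104 genes matched. The genes, lists, tests and the naming rule were chosen with earlier results of these data known. The naming rule took all mitochondrial genes, those without overlap, per complex the 2 smallest p and the 2 highest means, isoforms, those under the minimum, and per related list the smallest p. Non-overlapping genes of the lists, Uqcrfs1, Tfam, Nrf1, Cyc1, Cycs and Atp5o were named after their values were seen. Labels do not say whether replicates share a litter or day, and no batch is given. Alternatives covered the pseudocount, the minimum mean, scaling, a replicate block, sample weights, a robust prior and each library left out.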

Additional observations from a re-analysis of the deposited data

Results flagged for a closer look

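In 13 of 104 groups of 4 libraries examined (12.5%), a single library stood apart from the others by the gap on the log2(value + 1) scale. Several of these groups held values at or near 0, and some genes were picked by their values, so no chance rate is set beside this share. KO library 2 was apart with 2022 for Ndufa10 (869 to 968 in the other KO libraries), with 630.8 for Ndufaf1 (229 to 266) and with 0 for Ndufaf4 (225 to 450). KO library 3 was apart with 528.6 for Cox6c (186 to 215), with 70535 for mt-Co1 (31628 to 34512) and with 75.33 for Atp5md (0.79 to 1.10). KO library 4 had 1130 for Atp5g3, against 816 to 835 in the other KO libraries. WT library 2 had 0 for Atp5g1 (80.5 to 140 in the other WT libraries), 0 for Cox6c (173 to 312) and 0 for Ndufv3 (80.4 to 113). WT library 1 had 1328 for Ndufs1 (940 to 987). WT library 3 had 45.57 for Ndufaf6, listed at 0 in the other WT libraries, and 12296 for the sum of mt-Atp6 and mt-Atp8 (24208 to 26465). KO library 2, with 139 normalized units to a fragment, and WT library 2, with 63.5, were the libraries with the highest such value in their groups, and the part of this in the values at 0 was not tested.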

How the results depend on the processing

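No respiratory chain gene passed the adjusted threshold under any of the 19 alternatives run, and the smallest adjusted p among them lay between 0.403, with sample weights, and 0.926. At an unadjusted p under 0.05 there were 0 to 6, beside 4.58% to 10.1% of all genes fitted. The 6, of 96 fitted, came with sample weights, where the share of all genes was 9.68%. Without WT library 2 there were 5 of 95, beside 4.58%. The median log2 fold change ranged from -0.19 to 0.13 for nuclear genes and from -0.09 to 0.35 for mitochondrial genes, each crossing 0. Of 42 named respiratory chain genes fitted, 23 changed sign under some alternative and 19 under none. The count over all genes, 38, was 63 with a pseudocount of 10, 85 with one of 100, 15 with a minimum mean of 50, 15 with upper-quartile scaling and 112 with sample weights, and 7 to 70 with 1 library left out. Upper-quartile scaling moved the median of all genes to -0.27, of nuclear genes to -0.19 and of mitochondrial genes to 0.00. The Mtdh log2 fold change stayed at -1.23 with adjusted p of 0.0945 at a minimum mean of 50 and 0.0636 at 500, and lay between -1.38 and -1.04 with 1 library left out. The pseudocount of 100 and the minimum of 500 were chosen after seeing the data. Same-numbered KO and WT libraries correlated at 0.0162 to 0.0757 in their deviations, so the numbers were not taken as pairs. With a replicate block 0 genes were called and Mtdh had -1.23 (adjusted p = 0.0627), and KO library 3 correlated best with WT library 4, not with its own number. The median SE was 1.68 for the nuclear genes below a mean of 500, and the part of fragment number in it was not tested.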
